A study of Homo sapiens with 18 samples.

Results

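Interferon-stimulated genes are the genes that cells switch on when interferon binds its receptors, and 50 of them, listed by symbol, were followed across every group of an IMPDH2 knockout study. The rule is a list of symbols and uses no measured value, but the list was drawn up with earlier results of these data known. The members make up 50 of the 62749 genes in the deposited tables. Their 795 annotated transcripts were summed to genes. The cells were taken as MDA-MB-231, the line of the growth protocol, which was established from a triple-negative breast tumour. The cell line and genotype fields of the labels count up by 1 from sample to sample, so 1 line was assumed. Messenger RNA was sequenced in 18 libraries, 3 for each of 6 groups. IMPDH2 encodes the dehydrogenase that commits inosine monophosphate to the synthesis of guanine nucleotides. The groups were knockout cells grown with 400 µM guanosine (KO + guanosine), knockout cells given back IMPDH2 without a localisation signal (KO + IMPDH2), knockout cells given back a nuclear form (KO + nuclear IMPDH2), knockout cells given back a cytosolic form (KO + cytosolic IMPDH2), untreated knockout cells (KO) and unedited cells (WT). The first 4 of these carry the same IMPDH2 knockout as KO, and guanosine was given to 1 group alone. The labels do not say whether the knockout is 1 clone, how the returned enzyme is driven, or whether a group's 3 libraries are separate cultures, so each p measures the spread between these libraries. A lower level in such bulk RNA can come from fewer cells making a transcript or from less of it per cell, and these cannot be told apart.

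Interferons are secreted proteins that signal infection or cell damage to neighbouring cells. Type I and type III interferons act through receptor-bound kinases on the ISGF3 complex, which holds STAT2 and IRF9 and binds the interferon-stimulated response element in the promoters of its targets. Type II interferon acts mainly through another promoter element, the gamma-activated site. The targets encode proteins that bind foreign RNA, cut RNA, block membrane fusion or modify other proteins, and many are kept at a low level without added interferon. Several of the enzymes use guanine nucleotides or RNA as substrate or cofactor, among them the GTPases of the MX and GBP families.

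Most members with a known promoter shared the response element. The core searched was GAAANNGAAA, where N is any base, on both strands of the RefSeq promoter windows (GRCh38.p14, 250 bases before to 50 after each start). The promoter table held 41 of the 50 members, with 57 windows. A core match was present in 27 of the 41 members (65.9%), against 4.38% of the 27305 genes in the table. By window the share was 56.1% of the members' 57, against 3.57% of 35116. The longer form GAAANNGAAAC, which contains the core, was present in 51.2% of the members and 0.95% of all genes. The gamma-activated site TTCNNNGAA was present in 13 members (31.7%) and in 9.38% of all genes. A match describes letters in a window and does not show that a factor binds there. IFIT2, IFITM2, MX2, OAS2, OASL, USP18, GBP2, TRIM22 and UBA7 were not in the promoter table.

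Both promoters printed next hold a pair of core matches within 150 bases of the start, and both genes were higher in KO than in WT. With unlocalised IMPDH2, IFIT1 was higher and IFITM3 lower than in KO. Capitals mark the core matches, on either strand, and each stretch ends at the last base before the start. IFIT1 lies on the plus strand at chr10:89392473-89392622 and IFITM3 on the minus strand at chr11:320861-321010, both in GRCh38.p14.
IFIT1: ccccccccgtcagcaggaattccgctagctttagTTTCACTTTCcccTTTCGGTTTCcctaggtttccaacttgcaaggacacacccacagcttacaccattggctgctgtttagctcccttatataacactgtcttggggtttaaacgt
IFITM3: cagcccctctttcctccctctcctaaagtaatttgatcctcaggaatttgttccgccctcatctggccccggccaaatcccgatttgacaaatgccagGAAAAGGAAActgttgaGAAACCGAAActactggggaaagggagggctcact

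The elements of 7 further members are shown because each holds the core, while in KO against WT ISG15, BST2 and DDX60 were higher, IFIT5 and GBP1 lower, and PLSCR1 and EPSTI1 not called. Capitals again mark the match, overlapping matches are joined, and 8 bases stand on either side. ISG15 (chr1:1013376-1013407) lies on the plus strand. GBP1 (chr1:89065318-89065343), PLSCR1 (chr3:146544669-146544694), DDX60 (chr4:168318788-168318813), EPSTI1 (chr13:42992274-42992299) and BST2 (chr19:17405737-17405768) lie on the minus strand. IFIT5 (chr10:89414515-89414540) lies on the plus strand, near IFIT1. DDX60 and IFIT5 hold further matches that are not printed.
ISG15: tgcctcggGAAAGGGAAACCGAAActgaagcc
BST2: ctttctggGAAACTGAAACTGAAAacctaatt
DDX60: ggagaaagGAAACCGAAActcccgcc
IFIT5: ctattaagTTTCGGTTTCtgaagctt
GBP1: cgaagtacTTTCAGTTTCatattact
PLSCR1: ggaaccggGAAAAGGAAAccgtgttg
EPSTI1: gattctgaGAAACCGAAActcagctg

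The libraries held 45865079 to 63276484 estimated counts. Levels are in CPM, the estimated counts scaled to a common library size with TMM, which sets the typical gene equal between libraries. Levels compared between genes are in TPM, which also divides by transcript length. All 19252 genes that passed the filter on low counts entered the quasi-likelihood test of edgeR, and a gene was called higher or lower where its p, adjusted by Benjamini and Hochberg's method, was under 0.05. Every adjusted p given here is from that test. Each ± on a level is an SD over 3 libraries, and each ± on a log2 fold change is its SE. IMPDH2 itself averaged 22.1 ± 0.11 CPM in KO + guanosine, 532 ± 10.4 in KO + IMPDH2, 297 ± 12.6 in KO + nuclear IMPDH2, 379 ± 13.9 in KO + cytosolic IMPDH2, 41.6 ± 0.567 in KO and 319 ± 0.557 in WT, which matches the labels. IMPDH2 also differed between groups that these labels do not set apart by level. It was lower in KO + guanosine than in KO (-0.913 ± 0.038, adjusted p = 8.06e-13). It was lower in KO + nuclear IMPDH2 than in KO + cytosolic IMPDH2 (-0.349 ± 0.029, adjusted p = 1.33e-07). The part of these differences in the members' results was not tested. Mitochondrial transcripts took 7.41 to 7.83% of counts in the 5 knockout groups and 5.18% in WT. The line's own markers VIM, CD44 and EGFR were high in every group. Their summed level was 4389 to 4715 CPM in KO and 6164 to 6487 CPM in WT. Of the receptor genes checked as low or absent in such a line, ESR1 and PGR were near 0 in every group. ERBB2 was not absent. It averaged 69.4 CPM in WT and 83.3 CPM in KO + guanosine, its lowest and highest groups. The sum of a luminal or epithelial list of 7 genes was 558 to 595 CPM in KO + guanosine. It was 463 to 521 CPM over the 3 groups with returned IMPDH2, 401 to 412 in KO and 938 to 958 in WT. CLDN4 had 5.35 CPM in KO and 52.8 CPM in WT, and KRT18 had 113 CPM in KO and 313 CPM in WT. KRT8, KRT19 and GATA3 also averaged less in KO than in WT. EPCAM differed little, at 8.42 CPM in KO and 8.79 CPM in WT. CDH1 was near 0, at 0.0943 CPM in KO and 0.102 CPM in WT. A fibroblast list of 5 genes summed to 4.97 to 8.91 CPM in the 5 knockout groups and 16.1 to 18.3 CPM in WT, and an endothelial list of 4 genes to 27.8 to 29.1 CPM in KO and 17.3 to 19.2 CPM in WT. The endothelial genes did not move together. KDR had 23.6 CPM in KO and 6.98 in WT, PECAM1 had 4.91 in KO and 11.1 in WT, and CDH5 and VWF were near 0. A leukocyte list of 8 genes summed to 494 to 518 CPM in KO + guanosine, 663 to 682 in KO + IMPDH2, 610 to 635 in KO + nuclear IMPDH2, 684 to 723 in KO + cytosolic IMPDH2, 731 to 768 in KO and 154 to 161 in WT, nearly all of it CD68 (681 CPM in KO and 146 CPM in WT) and HLA-DRA (63.2 and 7.92 CPM). The defining leukocyte genes were at or near 0, with PTPRC at 0.317 CPM in KO and 0.378 CPM in WT, and CD3E at 0 in KO. The part of these shifts in the results was not tested.

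Of the 50 members 49 passed the filter. CMPK2, a mitochondrial nucleotide kinase, did not, with 14 counts over all 18 libraries. Mean TPM was at least 10 for 30 members, 1 to 10 for 14 and under 1 for 6. IFITM3 stood first at 1315 ± 40.9 TPM in KO and 774 ± 6.79 TPM in WT, and LGALS3BP, a secreted glycoprotein, followed at 337 ± 8.43 TPM in KO and 311 ± 10.8 TPM in WT. IFITM2, IFI16 and IFIT3 came next, at 216 ± 59.4, 187 ± 7.34 and 85.3 ± 7.13 TPM in KO and 106 ± 2.16, 77.4 ± 8.25 and 62.7 ± 3.61 TPM in WT. Together the members took 0.217% of all counts in KO + guanosine, 0.29% in KO + IMPDH2, 0.275% in KO + nuclear IMPDH2, 0.235% in KO + cytosolic IMPDH2, 0.295% in KO and 0.215% in WT.

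Relative to WT, 29 of the 49 tested members were higher in KO, 15 were lower and 5 were not called, with a median log2 fold change of 0.31 against 0.01 over all genes. Of all genes tested 35.9% were higher and 36.8% lower, beside 59.2% and 30.6% of the members. A fold of at least 2 was reached by 15 members called higher and 3 called lower, beside 12.8% and 9.97% of all genes. Scaling by library totals in place of TMM set the median of all genes to 0.168 for this comparison, to between -0.11 and -0.088 for the comparisons with KO, and to between 0.082 and 0.1 for the other comparisons with WT. Under that scaling 31 members were higher and 14 lower in KO than in WT, beside 45.5% and 28.5% of all genes.

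The comparisons with KO asked how far guanosine or a returned enzyme changes the members in knockout cells. In KO + guanosine against KO, 7 were higher and 33 lower (27.3% and 29.2% of all genes), with a median of -0.54. With protein-coding transcripts alone 3 were higher, beside 28% of the 13788 genes then tested, and under library totals 5 were higher and 36 lower (22.1% and 35.3% of all genes). In KO + IMPDH2 against KO, 25 were higher and 10 lower (25.7% and 25.1% of all genes), with a median of 0.13. When protein-coding transcripts alone were counted, 15 were higher in this comparison, or 30.6% of the members beside 26.4% of the 13788 genes then tested, which is near that background. Under library totals 18 were higher and 13 lower (18.4% and 33.8% of all genes). For KO + nuclear IMPDH2 against KO the counts were 17 higher and 11 lower (26.1% and 26.9% of all genes), and the balance turned under library totals, with 13 higher and 15 lower (19% and 35.2% of all genes). For KO + cytosolic IMPDH2 against KO they were 7 higher and 26 lower (24.6% and 26% of all genes), with a median of -0.21, and under library totals 3 were higher and 34 lower (17% and 35.7% of all genes). These 4 comparisons and that of KO with WT share the 3 KO libraries, so each comparison's values stand side by side and no overlap between them is given.

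KO + nuclear IMPDH2 against KO + cytosolic IMPDH2 shares no library with KO. Here 29 members were higher with the nuclear form, 4 lower and 16 not called, with a median of 0.21 against 0.00 over all genes. Of all genes 13.4% were higher and 10.5% lower. With an offset for transcript length 19 members were higher and 0 lower, beside 5.64% and 4% of all genes. With protein-coding transcripts alone 19 members were higher and 2 lower, beside 12.3% and 10.9% of the 13788 genes then tested. Without replicate 3 of KO + nuclear IMPDH2, 2 members were lower. No share of all genes is given for that setting, so the count shows only how the calls move.

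Against WT, KO + guanosine had 18 members higher and 21 lower (31.1% and 32.9% of all genes). KO + IMPDH2 had 32 higher and 11 lower (31.1% and 33.4%), and KO + nuclear IMPDH2 had 29 and 11 (31.5% and 33.6%). KO + cytosolic IMPDH2 had 21 higher and 16 lower (32.9% and 34.7%). With protein-coding transcripts alone 10 were lower, beside 35% of the 13788 genes then tested.

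**Figure D1:**
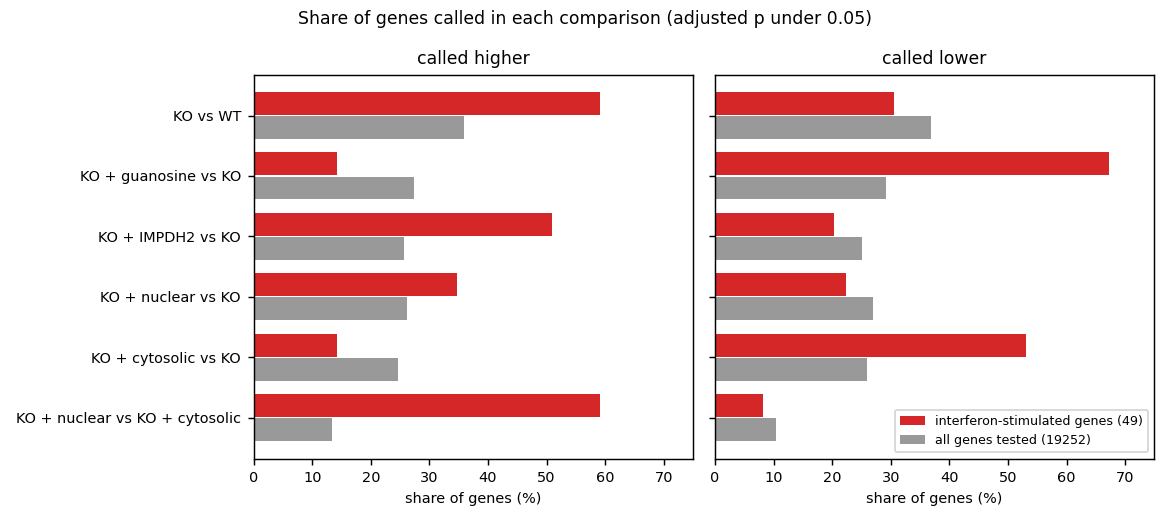
Share of the 49 tested interferon-stimulated genes (red) and of all 19252 genes tested (grey) that were called higher (left) or lower (right) in each of the 6 main comparisons, in percent of genes. The red bar exceeds the grey one most for genes lower with guanosine and for genes higher with nuclear than with cytosolic IMPDH2.

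**Figure D2:**
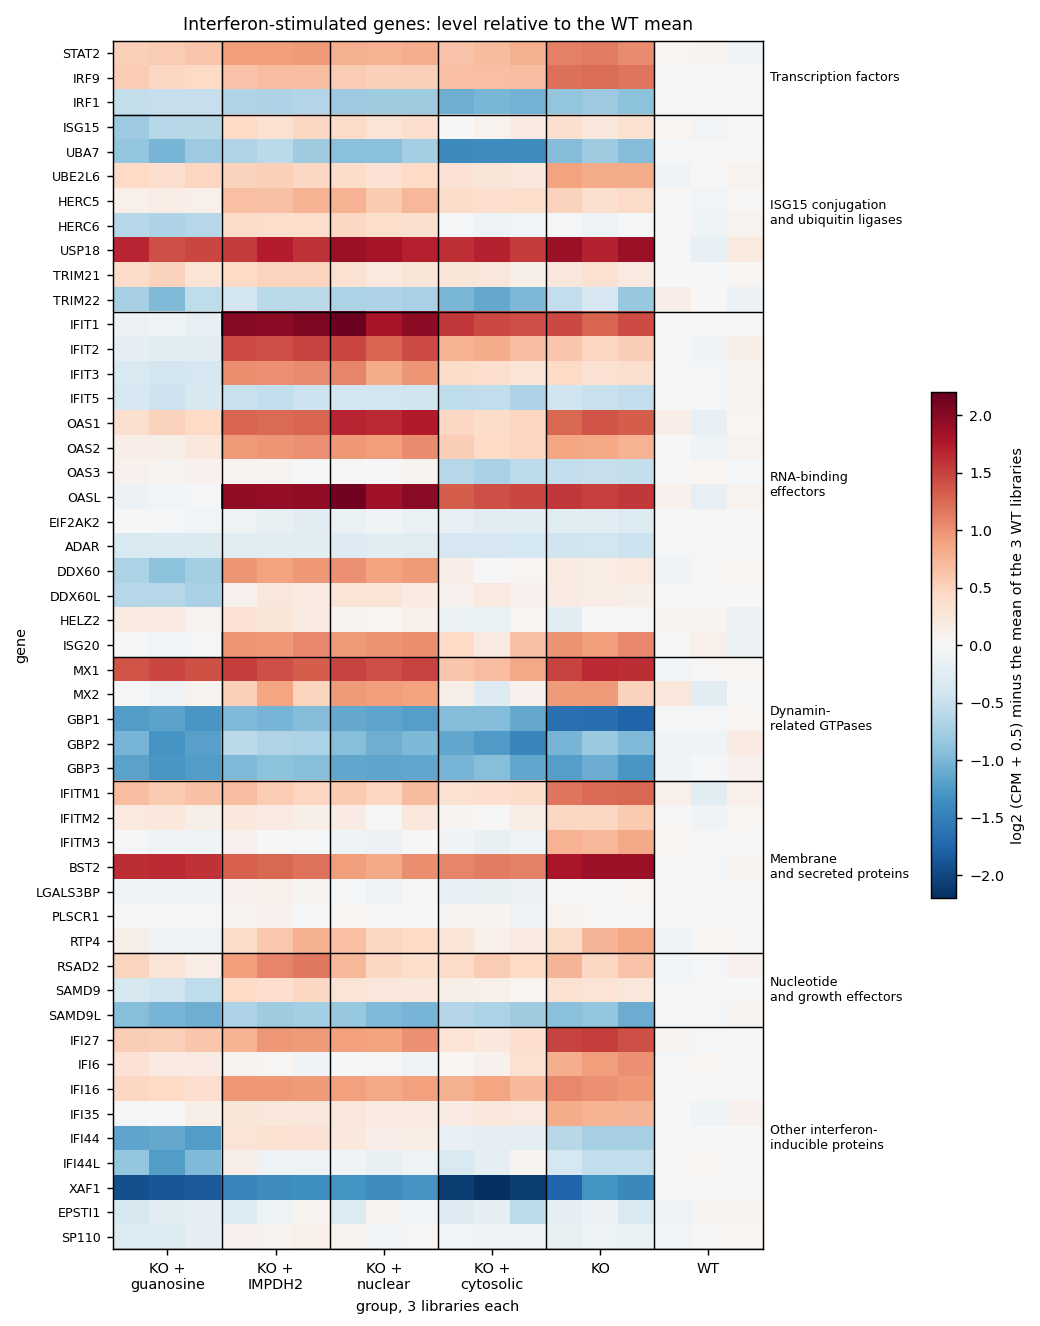
Level of each tested member in each of the 18 libraries as log2 (CPM + 0.5) minus the mean of the 3 WT libraries, with genes in rows by role and groups in columns. Red is above and blue below WT, with USP18 and BST2 red and GBP1 to GBP3 and XAF1 blue in all 5 knockout groups.

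STAT2 and IRF9 are the ISGF3 subunits that interferon induces, and IRF1 is a related activator that interferon gamma induces. STAT2 and IRF9 rose in KO and IRF1 fell, the last call being lost with an offset for transcript length. STAT2 had 92.9, 95.1 and 98.8 CPM in KO + guanosine, 123, 123 and 123 in KO + IMPDH2, 111, 109.6 and 113 in KO + nuclear IMPDH2, 99.99, 104 and 111 in KO + cytosolic IMPDH2, 140.4, 143 and 134 in KO and 66.8, 66.9 and 60.1 in WT. On average 47.7% of STAT2 counts were on protein-coding transcripts, with 43.1% in KO and 53.6% in WT. Over all its transcripts, all KO libraries lay above all others and all WT libraries below them. The log2 fold change was 1.11 ± 0.04 (SE), adjusted p = 4.35e-14, for KO against WT, and it ranged down to -0.54 ± 0.04 (adjusted p = 2.63e-09) for KO + guanosine against KO. IRF9 had 28.03, 26.1 and 25.8 CPM in KO + guanosine, 29.6, 30.5 and 30.6 in KO + IMPDH2, 28.2, 27.4 and 27.4 in KO + nuclear IMPDH2, 30.2, 30.1 and 30.7 in KO + cytosolic IMPDH2, 44.4, 44.96 and 43.1 in KO and 18.9, 18.9 and 18.9 in WT. KO again stood apart, at 2.34-fold the WT level, and the 4 other knockout groups lay close together between KO and WT. The log2 fold changes against KO were -0.73 ± 0.03 with guanosine, -0.55 ± 0.03 with unlocalised, -0.67 ± 0.03 with nuclear and -0.54 ± 0.03 with cytosolic IMPDH2, with adjusted p of 2.25e-12, 1.77e-10, 9.53e-12 and 1.85e-10. IRF1 had 25.6, 25.9 and 25.8 CPM in KO + guanosine, 23.3, 22.9 and 23.5 in KO + IMPDH2, 21.2, 21.3 and 21.3 in KO + nuclear IMPDH2, 17.4, 18.3 and 17.8 in KO + cytosolic IMPDH2, 20, 21.2 and 19.7 in KO and 36.5, 37.2 and 37.6 in WT. In these counts it was lower in every knockout group than in WT (-0.87 ± 0.03 for KO, adjusted p = 3.28e-14) and lowest in KO + cytosolic IMPDH2. The average effective length of its transcripts varied 7.76-fold between libraries, and with an offset for it neither the order nor the calls against WT held. Against WT the log2 fold change was then 1.30 for KO + guanosine, 0.25 for KO + cytosolic IMPDH2 and -0.89 for KO, with edgeR adjusted p of 0.0917, 0.758 and 0.218. IRF1 also turned to 1.14 for KO + cytosolic IMPDH2 against KO and to -1.13 for nuclear against cytosolic IMPDH2.

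ISG15 is a ubiquitin-like protein. UBA7 activates it, UBE2L6 carries it, HERC5 ligates it to targets and USP18 removes it and also restrains the interferon receptor. HERC6 is a close relative of HERC5, and TRIM21 and TRIM22 are RING-domain proteins. Of these 8 genes 5 were higher and 2 lower in KO than in WT (35.9% and 36.8% of all genes). With guanosine 1 was higher and 5 lower than in KO (27.3% and 29.2% of all genes), and with nuclear against cytosolic IMPDH2 6 were higher and 0 lower (13.4% and 10.5% of all genes). ISG15 had 13.6, 15.4 and 15.7 CPM in KO + guanosine, 32.8, 30.7 and 33.5 in KO + IMPDH2, 32.4, 29.5 and 31.3 in KO + nuclear IMPDH2, 23.9, 25.5 and 27.5 in KO + cytosolic IMPDH2, 30.9, 28.5 and 30.4 in KO and 24.99, 23.1 and 24.4 in WT. The KO + guanosine libraries lay below all others, with a log2 fold change of -1.004 ± 0.06 (SE), adjusted p = 1.76e-10, against KO. USP18 had 3.82, 3.13 and 3.27 CPM in KO + guanosine, 3.44, 3.99 and 3.57 in KO + IMPDH2, 4.55, 4.27 and 3.96 in KO + nuclear IMPDH2, 3.65, 3.91 and 3.45 in KO + cytosolic IMPDH2, 4.599, 3.904 and 4.59 in KO and 0.827, 0.7 and 1.08 in WT. It was low in WT alone, and KO exceeded WT with a log2 fold change of 2.32 ± 0.14 (SE), adjusted p = 2.64e-11. In the same comparison UBE2L6 was 1.79-fold higher, with 59.03, 56.03 and 60.2 CPM in KO + guanosine, 62.05, 62.4 and 59.7 in KO + IMPDH2, 57.2, 54.4 and 59.1 in KO + nuclear IMPDH2, 54.2, 52.02 and 51.1 in KO + cytosolic IMPDH2, 79.96, 76.3 and 76.5 in KO and 41.1, 43.4 and 45.5 in WT. UBE2L6 was lower than KO in all 4 treated or restored groups, by most in KO + cytosolic IMPDH2 (-0.56 ± 0.04, adjusted p = 1.84e-09).

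UBA7, the activating enzyme, went against most of this group. It had 9.34, 8.34 and 9.71 CPM in KO + guanosine, 10.8, 11.3 and 9.84 in KO + IMPDH2, 9.003, 8.96 and 10.1 in KO + nuclear IMPDH2, 6.26, 6.35 and 6.32 in KO + cytosolic IMPDH2, 8.71, 9.86 and 8.71 in KO and 17.2, 17.2 and 17.8 in WT. WT lay above all knockout libraries (-0.94 ± 0.07 for KO against WT, adjusted p = 5.98e-10), and KO + cytosolic IMPDH2 lay below all others. Nuclear exceeded cytosolic IMPDH2 by a log2 fold change of 0.57 ± 0.07 (SE), adjusted p = 1.65e-05. TRIM22 was also lower in KO (-0.65 ± 0.13, adjusted p = 0.000222), with 3.06, 2.53 and 3.51 CPM in KO + guanosine, 3.89, 3.43 and 3.405 in KO + IMPDH2, 3.15, 3.18 and 3.11 in KO + nuclear IMPDH2, 2.44, 2.21 and 2.49 in KO + cytosolic IMPDH2, 3.56, 4.07 and 2.802 in KO and 6.03, 5.36 and 4.899 in WT. HERC6 did not differ detectably between KO and WT (-0.07 ± 0.05, adjusted p = 0.232) but had 7.66, 7.36 and 7.64 CPM in KO + guanosine, 16.4, 15.9 and 15.9 in KO + IMPDH2, 16.7, 15.9 and 15.6 in KO + nuclear IMPDH2, 11.8, 11.3 and 11.6 in KO + cytosolic IMPDH2, 11.8, 11.1 and 11.8 in KO and 12.4, 11.3 and 12.7 in WT. Its KO + guanosine libraries lay below all others and its KO + IMPDH2 and KO + nuclear IMPDH2 libraries above all others. The log2 fold changes were -0.62 ± 0.05, 0.47 ± 0.05 and 0.47 ± 0.05 against KO, with adjusted p of 9.76e-09, 2.17e-07 and 1.8e-07. HERC5 was higher in KO than in WT (0.43 ± 0.05) and higher with nuclear than with cytosolic IMPDH2 (0.30 ± 0.05). TRIM21 was higher in KO than in WT (0.27 ± 0.05), with 0.06 ± 0.05 and no call between nuclear and cytosolic IMPDH2.

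The RNA-binding effectors include the IFIT proteins, which bind viral RNA ends, the OAS enzymes, which make 2-5A that activates RNase L, the kinase EIF2AK2 (PKR), the RNA editor ADAR, the helicase-like DDX60, DDX60L and HELZ2, and the exonuclease ISG20. Of 14 genes 9 were higher and 4 lower in KO than in WT (35.9% and 36.8% of all genes). Against KO, 4 were higher and 9 lower with guanosine (27.3% and 29.2% of all genes) and 10 and 0 with unlocalised IMPDH2 (25.7% and 25.1%). With nuclear IMPDH2 they were 11 and 0 (26.1% and 26.9%), and with cytosolic IMPDH2 2 and 4 (24.6% and 26%). Nuclear exceeded cytosolic IMPDH2 in 13 of the 14, beside 13.4% of all genes, with a median log2 fold change of 0.55.

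IFIT2 had 66.4, 64.9 and 64.1 CPM in KO + guanosine, 208, 206 and 215 in KO + IMPDH2, 214, 186 and 207 in KO + nuclear IMPDH2, 131, 136 and 123 in KO + cytosolic IMPDH2, 117, 107 and 112 in KO and 74.4, 72.3 and 83.5 in WT. Its KO + IMPDH2 and KO + nuclear IMPDH2 libraries lay above every other library, and its KO + guanosine libraries lay below every other. Relative to KO the log2 fold changes were -0.78 ± 0.06 with guanosine, 0.91 ± 0.05 with unlocalised, 0.85 ± 0.05 with nuclear and 0.21 ± 0.05 with cytosolic IMPDH2, with adjusted p of 1.42e-09, 2.07e-10, 3.64e-10 and 0.00316. IFIT1 had 25.4, 26.04 and 24.4 CPM in KO + guanosine, 112, 111 and 116 in KO + IMPDH2, 126, 98.4 and 109.9 in KO + nuclear IMPDH2, 82.6, 77.04 and 75.4 in KO + cytosolic IMPDH2, 76.8, 67.8 and 75.9 in KO and 27.4, 27.8 and 28.1 in WT. KO was 2.65-fold above WT, while KO + guanosine was not called different from WT (-0.13 ± 0.08, adjusted p = 0.144). IFIT3 had 79.4, 75.4 and 77.02 CPM in KO + guanosine, 204, 201 and 206 in KO + IMPDH2, 209.8, 175 and 196 in KO + nuclear IMPDH2, 132, 128 and 122 in KO + cytosolic IMPDH2, 135, 124 and 128 in KO and 97.7, 98.1 and 104 in WT. Its groups stood in nearly the same order as those of IFIT2, with KO + cytosolic IMPDH2 close to KO (-0.02 ± 0.05, adjusted p = 0.815).

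IFIT5, which lies beside IFIT1 and IFIT3 on chromosome 10 and holds the core element, was lower in KO than in WT. It had 40.4, 37.9 and 41.1 CPM in KO + guanosine, 37.01, 35.8 and 37.3 in KO + IMPDH2, 38.9, 39.2 and 38.6 in KO + nuclear IMPDH2, 35.6, 35.8 and 32.4 in KO + cytosolic IMPDH2, 38.6, 36.98 and 35.6 in KO and 50.5, 51.4 and 55.1 in WT. Every WT library lay above every knockout library (-0.50 ± 0.04 for KO against WT, adjusted p = 7.68e-09), and the log2 fold changes against KO were 0.10 ± 0.04 with guanosine and -0.01 ± 0.04, 0.07 ± 0.04 and -0.10 ± 0.04 with unlocalised, nuclear and cytosolic IMPDH2. Their edgeR adjusted p were 0.0591, 0.831, 0.2 and 0.0743. The IFIT genes resemble each other, as do those of the OAS, MX and GBP families, so reads shared between relatives may have been divided unevenly by the authors' quantification.

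**Figure D3:**
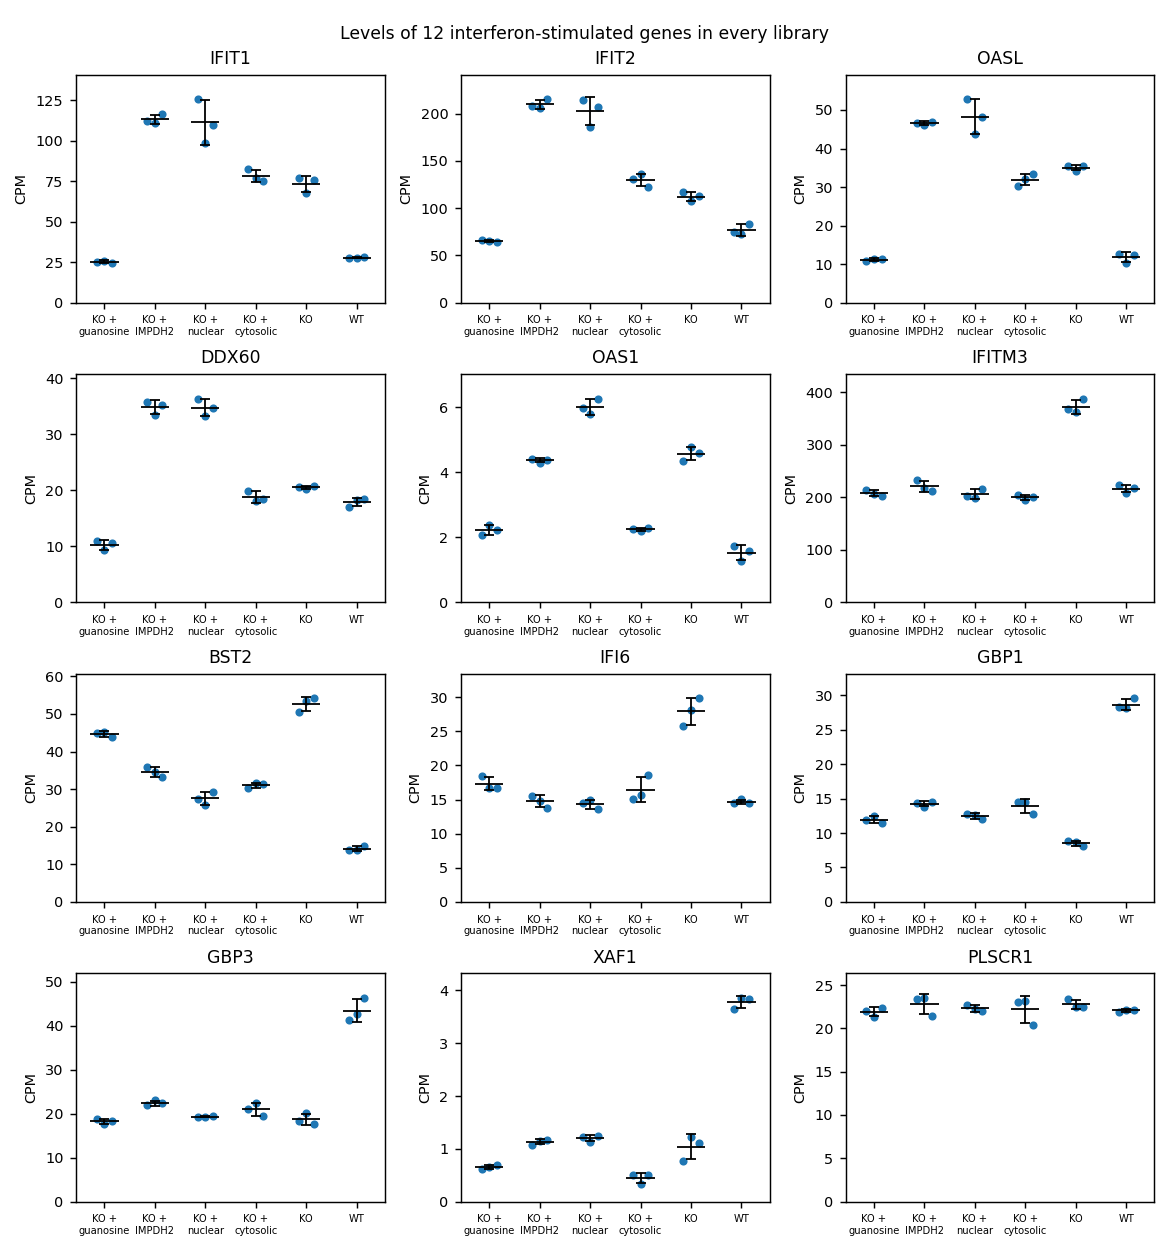
CPM of 12 members in every library, with the 6 groups on the horizontal axis, points for libraries, and bars for the mean and SD of 3 libraries. IFIT1, IFIT2, OASL and DDX60 were lowest or near lowest with guanosine and highest with unlocalised or nuclear IMPDH2, IFITM3, BST2 and IFI6 were highest in KO, GBP1, GBP3 and XAF1 were highest in WT, and PLSCR1 varied little.

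OASL, an OAS relative without 2-5A activity, had 10.7, 11.2 and 11.4 CPM in KO + guanosine, 46.7, 46.2 and 46.98 in KO + IMPDH2, 52.9, 43.7 and 48.2 in KO + nuclear IMPDH2, 30.4, 32.04 and 33.5 in KO + cytosolic IMPDH2, 35.4, 34.2 and 35.5 in KO and 12.6, 10.4 and 12.4 in WT. KO lay above WT and KO + guanosine, with log2 fold changes of 1.57 ± 0.07 (SE), adjusted p = 3.58e-13, for KO against WT and -1.66 ± 0.07 (SE), adjusted p = 9.98e-13, for KO + guanosine against KO. OAS1 had 2.08, 2.38 and 2.24 CPM in KO + guanosine, 4.42, 4.299 and 4.39 in KO + IMPDH2, 5.98, 5.79 and 6.27 in KO + nuclear IMPDH2, 2.26, 2.18 and 2.29 in KO + cytosolic IMPDH2, 4.35, 4.76 and 4.61 in KO and 1.73, 1.27 and 1.58 in WT. Here KO + cytosolic IMPDH2 lay with KO + guanosine and somewhat above WT, while KO + nuclear IMPDH2 lay above KO. The log2 fold changes were 0.40 ± 0.09 for nuclear IMPDH2 against KO (adjusted p = 0.00117), -1.03 ± 0.10 for cytosolic IMPDH2 against KO (5.77e-08) and 1.42 ± 0.09 for nuclear against cytosolic IMPDH2 (1.09e-08). OAS2 showed the same directions at a smaller size, 0.14 ± 0.04, -0.36 ± 0.05 and 0.50 ± 0.05 in the same 3 comparisons.

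OAS3 lies beside OAS1 and OAS2 on chromosome 12 and was lower in KO than in WT, with 46.7, 45.7 and 46.5 CPM in KO + guanosine, 45.3, 45.4 and 43.6 in KO + IMPDH2, 44.5, 44.1 and 45.5 in KO + nuclear IMPDH2, 28.1, 26.6 and 28.99 in KO + cytosolic IMPDH2, 29.9, 30.4 and 30.2 in KO and 43.7, 44.8 and 42.6 in WT. It fell into a high set (KO + guanosine, KO + IMPDH2, KO + nuclear IMPDH2 and WT) and a low set (KO + cytosolic IMPDH2 and KO) with no overlap. The log2 fold changes were -0.53 ± 0.03 (SE), adjusted p = 4.02e-11, for KO against WT and 0.68 ± 0.03 (SE), adjusted p = 2.29e-10, for nuclear against cytosolic IMPDH2. On average 32.7% of OAS3 counts were on protein-coding transcripts, and with these alone the log2 fold changes were -0.05 and 0.87, with edgeR adjusted p of 0.955 and 0.489.

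ADAR and EIF2AK2 also went against the group in KO. On average 47% of ADAR counts were on protein-coding transcripts. ADAR had 169, 169 and 169.8 CPM in KO + guanosine, 180, 182 and 181 in KO + IMPDH2, 176, 179 and 177 in KO + nuclear IMPDH2, 165, 165 and 163 in KO + cytosolic IMPDH2, 157, 162 and 154 in KO and 209.9, 216 and 213 in WT, with WT above all knockout libraries (-0.44 ± 0.02, adjusted p = 9.84e-13). Against KO, ADAR was higher with nuclear IMPDH2 by 0.17 ± 0.02 and with cytosolic IMPDH2 by 0.06 ± 0.02, and the second turned to -0.03 under library totals. The transcript ADAR-201 took 2.47% of ADAR counts in KO and 0.53% in WT (exact permutation test, two-sided p = 0.2, where 0.1 is the smallest this design allows). EIF2AK2 had 118, 116 and 113 CPM in KO + guanosine, 109, 105 and 99.4 in KO + IMPDH2, 106, 112 and 107 in KO + nuclear IMPDH2, 104, 100.5 and 99.1 in KO + cytosolic IMPDH2, 97.5, 100.3 and 95.1 in KO and 116, 120.4 and 117 in WT. KO was lower than WT, at a log2 fold change of -0.27 ± 0.03 (SE), adjusted p = 1.09e-06, and EIF2AK2 was higher with guanosine than in KO (0.24 ± 0.03, adjusted p = 7.42e-06).

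DDX60 lies beside DDX60L on chromosome 4. DDX60 had 10.9, 9.31 and 10.5 CPM in KO + guanosine, 35.8, 33.4 and 35.3 in KO + IMPDH2, 36.4, 33.4 and 34.7 in KO + nuclear IMPDH2, 19.96, 18.1 and 18.4 in KO + cytosolic IMPDH2, 20.6, 20.2 and 20.7 in KO and 17.02, 18.2 and 18.5 in WT, which placed KO + IMPDH2 and KO + nuclear IMPDH2 above all other libraries. DDX60L had 17.6 to 18.8 CPM in KO + guanosine and 28.8 to 35.9 CPM in the other 5 groups, and nuclear exceeded cytosolic IMPDH2 by a log2 of 0.13 ± 0.04, against 0.89 ± 0.05 for DDX60. ISG20 had 3.04 to 3.14 CPM in KO + guanosine, 6.56 to 7.20 in KO and 2.899 to 3.497 in WT, with log2 fold changes of -1.15 ± 0.10 for KO + guanosine against KO and 1.09 ± 0.10 for KO against WT. The average effective length of ISG20 transcripts varied 3.98-fold between libraries. In TPM KO + guanosine had 13.6, 3.755 and 6.77, so it overlapped KO, at 9.1, 8.65 and 9.425. WT had 3.77, 4.16 and 4.04 TPM. HELZ2 was not called between KO and WT (-0.10 ± 0.07, adjusted p = 0.197).

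The dynamin-related GTPases split by family. MX1 and MX2, which trap viral nucleocapsids, rose in KO relative to WT, and GBP1, GBP2 and GBP3, which coat pathogens and are strong interferon gamma targets, fell. MX1 had 5.79, 6.16 and 5.88 CPM in KO + guanosine, 6.42, 5.97 and 5.62 in KO + IMPDH2, 6.28, 5.92 and 6.29 in KO + nuclear IMPDH2, 3.197, 3.35 and 3.87 in KO + cytosolic IMPDH2, 6.23, 7.06 and 6.98 in KO and 1.804, 1.95 and 1.999 in WT. The WT libraries lay lowest and those of KO + cytosolic IMPDH2 lay between WT and the rest. MX1 log2 fold changes were 1.82 ± 0.09 (SE), adjusted p = 1.43e-12, for KO against WT and -0.96 ± 0.08 (SE), adjusted p = 2.21e-08, for KO + cytosolic IMPDH2 against KO. MX2 was near 1 CPM or below, with 0.403, 0.357 and 0.474 CPM in KO + guanosine, 0.829, 1.18 and 0.8 in KO + IMPDH2, 1.27, 1.25 and 1.202 in KO + nuclear IMPDH2, 0.507, 0.257 and 0.482 in KO + cytosolic IMPDH2, 1.28, 1.26 and 0.807 in KO and 0.601, 0.276 and 0.42 in WT. Between nuclear and cytosolic IMPDH2 its log2 fold change was 1.59 ± 0.28 (SE), adjusted p = 0.000448, the largest of the members in that comparison.

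GBP1 had 11.9, 12.4 and 11.5 CPM in KO + guanosine, 14.4, 13.8 and 14.6 in KO + IMPDH2, 12.8, 12.6 and 12 in KO + nuclear IMPDH2, 14.4, 14.5 and 12.8 in KO + cytosolic IMPDH2, 8.803, 8.69 and 8.09 in KO and 28.2, 28.1 and 29.6 in WT. KO lay lowest, WT highest, and the 4 treated or restored groups between them, with log2 fold changes of -1.75 ± 0.05 (SE), adjusted p = 2.28e-15, for KO against WT and 0.49 ± 0.06, 0.74 ± 0.05, 0.55 ± 0.06 and 0.71 ± 0.06 against KO with guanosine and with unlocalised, nuclear and cytosolic IMPDH2. GBP1 was 1 of the 4 members lower with nuclear than with cytosolic IMPDH2 (-0.16 ± 0.05), beside SAMD9L (-0.25 ± 0.07), BST2 (-0.18 ± 0.04) and IRF9 (-0.13 ± 0.03). GBP2 and GBP3 were lower than WT in all 5 knockout groups, at -0.96 ± 0.09 and -1.21 ± 0.06 in KO. Of GBP2 counts 22.4% on average were on protein-coding transcripts, and of GBP3 counts 47.5%.

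Membrane and secreted proteins include the IFITM proteins, which block fusion of virions with endosomes, and BST2, which holds budding virions at the surface. Of 7 genes 5 rose and 0 fell in KO relative to WT (35.9% and 36.8% of all genes). Against KO 0 rose and 6 fell with guanosine (27.3% and 29.2% of all genes), and 1 and 4 with unlocalised IMPDH2 (25.7% and 25.1%). The counts were 0 and 4 with nuclear (26.1% and 26.9%) and 0 and 6 with cytosolic IMPDH2 (24.6% and 26%). IFITM3 had 214, 206 and 203 CPM in KO + guanosine, 233, 218 and 213 in KO + IMPDH2, 204, 198 and 216 in KO + nuclear IMPDH2, 205, 194 and 200.1 in KO + cytosolic IMPDH2, 368, 362 and 388 in KO and 223, 209 and 218 in WT. The 3 KO libraries lay far above all 15 others, and the rest overlapped in part. The log2 fold changes were 0.78 ± 0.04 for KO against WT and -0.84 ± 0.04, -0.75 ± 0.04, -0.86 ± 0.04 and -0.90 ± 0.04 against KO with guanosine and with unlocalised, nuclear and cytosolic IMPDH2, each with an adjusted p of 3.4e-11 or less.

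IFITM1 and IFITM2 are closely similar neighbours of IFITM3, so the division of reads among the 3 is uncertain, and each was highest in KO. IFITM1 had 28.5, 26.4 and 27.8 CPM in KO + guanosine, 28.4, 26.2 and 24.7 in KO + IMPDH2, 26.5, 24.6 and 28.7 in KO + nuclear IMPDH2, 22.4, 22.9 and 23.4 in KO + cytosolic IMPDH2, 40.6, 42.3 and 42.8 in KO and 19.1, 14.9 and 19.02 in WT. KO exceeded WT by 1.24 ± 0.07 (adjusted p = 3.97e-11), and each of the other knockout groups lay between. IFITM2 had 47.2, 47.7 and 44.7 CPM in KO + guanosine, 48.1, 46.3 and 44.6 in KO + IMPDH2, 45.97, 41.2 and 47.7 in KO + nuclear IMPDH2, 42.7, 40.8 and 45.7 in KO + cytosolic IMPDH2, 56.3, 55.9 and 61.03 in KO and 41.6, 38.6 and 42.1 in WT, a smaller spread, with 0.50 ± 0.06 for KO against WT (adjusted p = 1.73e-07).

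BST2 had 44.8, 45.3 and 43.8 CPM in KO + guanosine, 36.02, 34.7 and 33.3 in KO + IMPDH2, 27.5, 25.8 and 29.3 in KO + nuclear IMPDH2, 30.3, 31.6 and 31.4 in KO + cytosolic IMPDH2, 50.5, 53.4 and 54.2 in KO and 13.8, 13.9 and 14.9 in WT. Its log2 fold change in KO against WT was 1.89 ± 0.05 (SE), adjusted p = 1.42e-16, the smallest adjusted p of the members. Relative to KO it was lowest with nuclear IMPDH2 (-0.94 ± 0.04, adjusted p = 6.29e-12) and highest with guanosine (-0.24 ± 0.04, 9.02e-05), and all 5 knockout groups stayed above WT. LGALS3BP, among the most abundant members, was not called between KO and WT (0.02 ± 0.03, adjusted p = 0.439), with 499, 492 and 495 CPM in KO + guanosine, 567, 572 and 551 in KO + IMPDH2, 521, 506 and 539 in KO + nuclear IMPDH2, 468, 472 and 484 in KO + cytosolic IMPDH2, 539, 536 and 545 in KO and 530.3, 521 and 544 in WT. With unlocalised IMPDH2 it was 0.06 ± 0.03 against KO, and -0.02 under library totals. PLSCR1, a phospholipid scramblase, had 20.4 to 23.5 CPM over all 18 libraries, and its smallest edgeR adjusted p over the 10 comparisons was 0.319. RTP4, a chaperone of receptor transport, had 0.737 to 1.20 CPM in KO and 0.395 to 0.466 CPM in WT (1.19 ± 0.23, adjusted p = 0.000118).

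Among the nucleotide and growth effectors, RSAD2 (viperin) makes a chain-terminating nucleotide, and SAMD9 and SAMD9L are neighbouring antiviral and growth-restraining genes on chromosome 7. SAMD9 rose in KO and SAMD9L fell. SAMD9 had 29.9, 28.1 and 25.99 CPM in KO + guanosine, 52.5, 49.9 and 52.6 in KO + IMPDH2, 47.3, 45.8 and 45.3 in KO + nuclear IMPDH2, 41.9, 41.6 and 39.4 in KO + cytosolic IMPDH2, 48.7, 47.7 and 45.6 in KO and 37.6, 39.1 and 38.6 in WT. KO + guanosine lay below all other libraries (-0.76 ± 0.04 against KO, adjusted p = 7.29e-11), while KO lay above WT (0.30 ± 0.04, adjusted p = 4.56e-06). SAMD9L had 9.82, 9.27 and 8.83 CPM in KO + guanosine, 11.9, 10.99 and 11.3 in KO + IMPDH2, 10.6, 9.54 and 9.202 in KO + nuclear IMPDH2, 12.1, 11.6 and 11.04 in KO + cytosolic IMPDH2, 9.95, 10.3 and 8.74 in KO and 18.8, 18.8 and 20.1 in WT. The WT libraries lay above all others, with -0.99 ± 0.07 (SE), adjusted p = 1.49e-10, for KO against WT. Against KO, SAMD9L was higher with cytosolic (0.26 ± 0.07) and unlocalised (0.23 ± 0.07) IMPDH2. RSAD2 was under 1 CPM in every library, at 0.293 to 0.467 CPM in KO and 0.0564 to 0.12 CPM in WT (2.24 ± 0.38, adjusted p = 3.85e-05).

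The remaining 9 members have varied functions. IFI27 and IFI6 are small mitochondrial or membrane proteins, IFI16 is a DNA sensor, XAF1 antagonises an inhibitor of apoptosis, and the roles of IFI35, IFI44, IFI44L, EPSTI1 and SP110 are less settled. Relative to WT 4 were higher and 4 lower in KO, near the 35.9% and 36.8% of all genes, and relative to KO 0 were higher and 8 lower with guanosine (27.3% and 29.2% of all genes). IFI27 had 13.01, 12.9 and 13.6 CPM in KO + guanosine, 15.3, 17.6 and 17.3 in KO + IMPDH2, 16.9, 16.8 and 18.1 in KO + nuclear IMPDH2, 11.02, 10.4 and 11.5 in KO + cytosolic IMPDH2, 25.5, 26.2 and 24.4 in KO and 9.15, 8.48 and 8.78 in WT. KO was highest and WT lowest, with log2 fold changes of 1.53 ± 0.06 (SE), adjusted p = 4.11e-14, for KO against WT and -1.21 ± 0.06 (SE), adjusted p = 7.4e-12, for KO + cytosolic IMPDH2 against KO. IFI6 had 18.4, 16.8 and 16.7 CPM in KO + guanosine, 15.6, 14.8 and 13.8 in KO + IMPDH2, 14.5, 14.9 and 13.6 in KO + nuclear IMPDH2, 15.1, 15.7 and 18.6 in KO + cytosolic IMPDH2, 25.8, 28.1 and 29.8 in KO and 14.4, 15.1 and 14.5 in WT. It was higher in KO than in the other groups, at 0.93 ± 0.07 against WT, and lowest relative to KO with nuclear IMPDH2 (-0.96 ± 0.07, adjusted p = 2.97e-09).

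IFI16 had 161, 161 and 152 CPM in KO + guanosine, 228, 229 and 225 in KO + IMPDH2, 222, 210.5 and 221 in KO + nuclear IMPDH2, 203, 215 and 194 in KO + cytosolic IMPDH2, 247, 239 and 229.9 in KO and 117, 118 and 119 in WT. With guanosine it was lower than in KO (-0.59 ± 0.04, adjusted p = 1.16e-10) and still above WT, and with unlocalised IMPDH2 it was not called (-0.07 ± 0.04, adjusted p = 0.112). IFI35 had 33.9 to 35.8 CPM in KO and 18.7 to 24.2 CPM in the 15 other libraries. IFI44 had 17.2, 17.6 and 16.5 CPM in KO + guanosine, 47.5, 49.2 and 48.8 in KO + IMPDH2, 46.1, 43.6 and 44.1 in KO + nuclear IMPDH2, 34.3, 33.8 and 33.6 in KO + cytosolic IMPDH2, 25.5, 23.4 and 23.3 in KO and 38.5, 39.5 and 39.2 in WT. It was lower in KO than in WT (-0.70 ± 0.04, adjusted p = 4.88e-12), lower still with guanosine and above WT with unlocalised IMPDH2, where its log2 fold change against KO was 1.01 ± 0.04 (SE), adjusted p = 3.67e-13, the largest rise of the members in that comparison. IFI44L, its neighbour on chromosome 1, was -0.56 ± 0.13 for KO against WT and 0.53 ± 0.13 for KO + IMPDH2 against KO.

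XAF1 had 0.615, 0.657 and 0.689 CPM in KO + guanosine, 1.08, 1.14 and 1.17 in KO + IMPDH2, 1.23, 1.13 and 1.24 in KO + nuclear IMPDH2, 0.507, 0.337 and 0.502 in KO + cytosolic IMPDH2, 0.772, 1.23 and 1.11 in KO and 3.65, 3.86 and 3.84 in WT. In CPM its WT libraries lay above all others, and those of KO + cytosolic IMPDH2 below all others. Without an offset for length the log2 fold changes were -1.86 ± 0.16 (SE), adjusted p = 4.65e-09, for KO against WT, the largest fall of the members, and 1.43 ± 0.18 (SE), adjusted p = 1.22e-05, for nuclear against cytosolic IMPDH2. The average effective length of XAF1 transcripts varied 3.72-fold between libraries. In TPM KO + cytosolic IMPDH2 had 0.632, 0.122 and 0.702, overlapping KO + nuclear IMPDH2 at 0.6265, 0.781 and 0.597. WT stayed above all others, at 2.41, 2.985 and 2.77 TPM. SP110 was slightly lower in KO than in WT (-0.15 ± 0.04, adjusted p = 0.0044). EPSTI1 was near 1 CPM and was called in 1 of the 10 comparisons, KO + cytosolic IMPDH2 against WT (-0.54 ± 0.20, adjusted p = 0.0234).

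**Figure D4:**
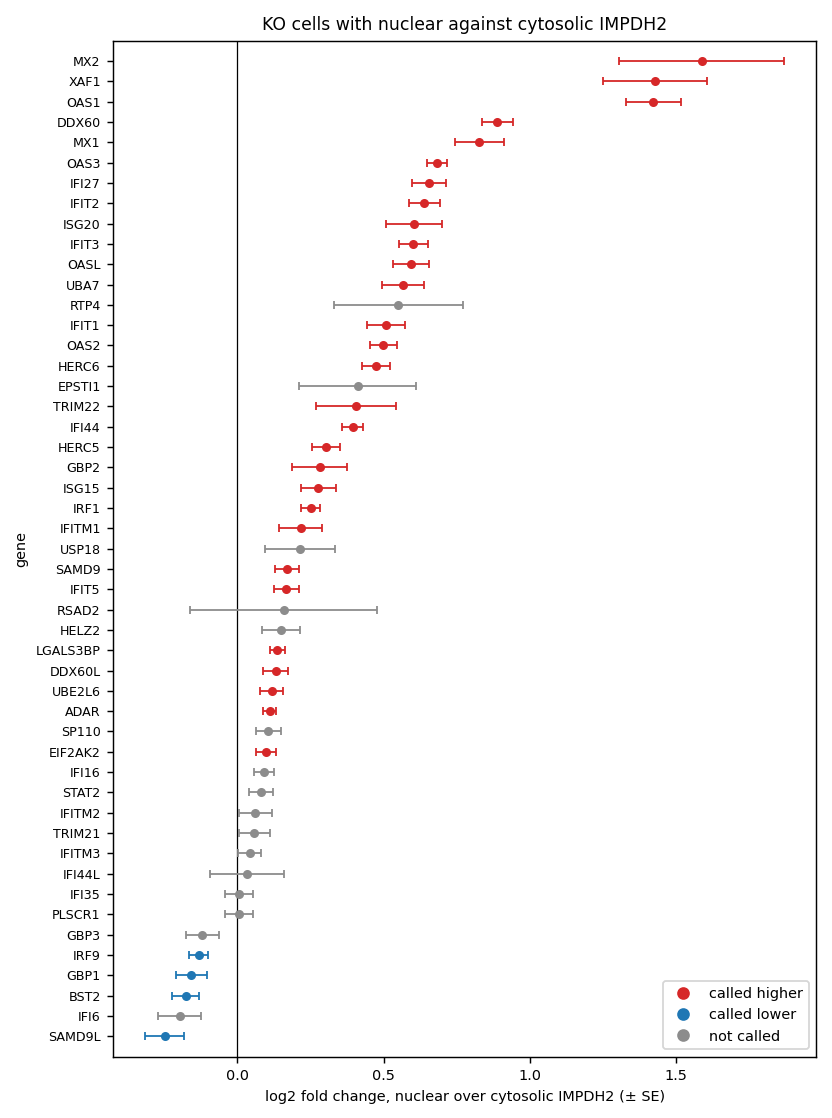
Log2 fold change of each tested member, nuclear over cytosolic IMPDH2, with its SE, in order of size, red for called higher, blue for called lower and grey for not called. MX2, XAF1 and OAS1 stand above 1, and SAMD9L is the lowest at -0.25. No offset for transcript length was applied.

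Members with and without a core match were called in both directions. In KO against WT 17 of the 27 with a match were higher and 7 lower, and 6 of the 13 tested without one were higher and 5 lower, beside 35.9% and 36.8% of all genes. With nuclear against cytosolic IMPDH2 16 of 27 with a match were higher and 2 lower, and 6 of 13 without one were higher and 2 lower, beside 13.4% and 10.5% of all genes. The 9 members with no promoter in the table had 7 higher and 0 lower in that comparison. The difference between members with and without a match was not tested.

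The genes upstream of the members were followed through a list of 34 ligands, receptors, kinases, STATs, regulatory factors and inhibitors that are not members. None of the 12 interferon ligands on the list passed the filter. IFNL1 had 7 counts over all libraries, IFNL2 had 1, and the other 10 were at 0. Of the 21 genes tested 6 were higher and 10 lower in KO than in WT, near the 35.9% and 36.8% of all genes. Against KO 7 were higher and 8 lower with guanosine (27.3% and 29.2% of all genes) and 6 and 7 with unlocalised IMPDH2 (25.7% and 25.1%). They were 4 and 8 with nuclear (26.1% and 26.9%) and 5 and 10 with cytosolic IMPDH2 (24.6% and 26%). With nuclear against cytosolic IMPDH2 3 were higher and 3 lower (13.4% and 10.5% of all genes). With the length offset 4 were lower than KO in each of the 4 comparisons with it, beside 16.9 to 21.8% of all genes.

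Of the type I receptor chains, IFNAR2 had 19.1, 18.7 and 20.2 CPM in KO + guanosine, 16.04, 16.4 and 18.9 in KO + IMPDH2, 16.8, 18.4 and 16.5 in KO + nuclear IMPDH2, 17.8, 16.2 and 18.7 in KO + cytosolic IMPDH2, 16.4, 18.2 and 19.8 in KO and 11.7, 11.4 and 8.998 in WT, at 0.76 ± 0.09 for KO against WT (adjusted p = 7.8e-07), and its edgeR adjusted p in the 4 comparisons with KO ran from 0.394 to 0.699. IFNAR1 averaged 71.3 ± 1.502 CPM in KO and 79.7 ± 3.08 CPM in WT, a log2 fold change of -0.16 ± 0.03 that was 0.00 under library totals. IFNLR1, the type III receptor chain, was lower in KO than in WT (-1.18 ± 0.15, adjusted p = 1.16e-06).

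IRF7, a factor that amplifies interferon production, had 31.6, 31.4 and 29.9 CPM in KO + guanosine, 22.8, 22.1 and 20.9 in KO + IMPDH2, 20.7, 22.1 and 20.7 in KO + nuclear IMPDH2, 20.8, 22.9 and 24.6 in KO + cytosolic IMPDH2, 35.2, 38.5 and 40.7 in KO and 14.4, 14.1 and 13.3 in WT. KO lay above all other libraries, at 1.45 ± 0.06 against WT (adjusted p = 2.7e-13), and the 4 other knockout groups lay between KO and WT. JAK1 and TYK2, the type I receptor kinases, were lower in KO than in WT, at -0.80 ± 0.03 and -0.43 ± 0.04. TYK2 was higher than KO in the 4 other knockout groups, at 0.35 ± 0.04, 0.33 ± 0.04, 0.34 ± 0.04 and 0.34 ± 0.04. JAK2, a type II receptor kinase, was lower than KO in all 4, at -0.27 ± 0.06, -0.19 ± 0.06, -0.16 ± 0.06 and -0.37 ± 0.06 in the same order. Of the inhibitors, PTPN6, a phosphatase mainly of blood cells, averaged 0.27 ± 0.122 CPM in KO and 1.08 ± 0.0853 CPM in WT (-1.98 ± 0.35, adjusted p = 6.5e-05). SOCS3, which blocks JAK kinases, was higher with guanosine than in KO (0.54 ± 0.06, adjusted p = 1.16e-06) and higher with nuclear than with cytosolic IMPDH2 (0.44 ± 0.07, adjusted p = 7.69e-05).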

How the data were processed

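Each deposited table lists 252048 transcripts with the authors' estimated counts, TPM and effective length. The columns are Salmon's, per the file headers. The tools named are Trim Galore 0.6.10 and Salmon 1.10.0, with the build hg19, per the submitters' processing notes. The strand setting is not given in the sources used here. The deposited estimated counts were summed to genes and rounded, since 32.5% of transcript values were not whole. The deposited series table gave the same sums.

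A low-count filter, filterByExpr, kept 19252 genes. All 18 libraries entered 1 edgeR 4.0.16 fit (R 4.3.3) with TMM scaling, a mean per group, the quasi-likelihood test and Benjamini-Hochberg adjustment within each of 10 comparisons at 0.05. The common biological coefficient of variation was 4.87%. The edgeR and DESeq2 1.42.0 steps were tested on simulated data with 200 changed genes. The members, role groups and pathway list were chosen with earlier results of these data known. Values in every library are given for the called members without overlap that had the largest fold in each role group and main comparison (2 in KO against WT, 1 otherwise), for members called against the majority of their role group in KO against WT, and for the 5 of highest TPM. IFIT1, DDX60 and the other members outside that rule were described after their values were seen. Replicates of a group differed by 3.5 or more times the sampling variance, so no library was counted as a repeat of another. Repeat preparations of 1 RNA can also differ by more than sampling, so this cannot show whether the libraries are separate cultures. Alternatives were DESeq2 size factors, library totals, no filter, a replicate block, a length offset, the 6 compared libraries alone, the DESeq2 Wald test, leaving out each library and, added after seeing the data, protein-coding transcripts alone. Promoter letters were searched in Python 3.11.15 with pandas 2.3.3 and numpy 2.4.6, exact tests used scipy 1.17.1, and plots matplotlib 3.10.9. Values of 2 further listed genes are not reported here.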

Additional observations from a re-analysis of the deposited data

Results flagged for a closer look

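Over all their transcripts OAS1, OAS2 and OAS3 differed from KO in opposite directions with nuclear and with cytosolic IMPDH2, and the difference between the 2 forms passed the edgeR test. For OAS1 the difference, nuclear over cytosolic, was 1.422 on the log2 scale, with 6.01 ± 0.238 CPM in KO + nuclear IMPDH2 and 2.24 ± 0.0559 CPM in KO + cytosolic IMPDH2 (SD, 3 libraries each; edgeR adjusted p = 1.09e-08). It was higher in 3 of 3 nuclear libraries. For OAS2 the difference was 0.499, with 40.2 ± 1.73 and 28.4 ± 1.18 CPM in the same groups (edgeR adjusted p = 4.26e-07). For OAS3 it was 0.683, with 44.7 ± 0.684 and 27.9 ± 1.22 CPM (edgeR adjusted p = 2.29e-10). With protein-coding transcripts alone OAS3 was lower with both forms than in KO, at -0.49 with nuclear and -1.36 with cytosolic IMPDH2, so the opposite directions were lost, and neither these values nor the difference of 0.87 was called (edgeR adjusted p = 0.621, 0.168 and 0.489).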

How the results depend on the processing

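Where no share of all genes stands beside a count in this section, it shows only how the calls move with the setting. Numbers of members higher and lower stayed within 1.5 times of the values given in every alternative except these. With protein-coding transcripts alone, 3 members were higher with guanosine than in KO, 15 with unlocalised IMPDH2, 4 with cytosolic IMPDH2, and 10 were lower with cytosolic IMPDH2 than in WT. Between nuclear and cytosolic IMPDH2 that setting gave 19 higher and 2 lower, and the length offset 19 and 0. Library totals gave 3 members higher with cytosolic IMPDH2 than in KO. Leaving out each library in turn gave 4 to 7 there (4 without KO replicate 3) and, between nuclear and cytosolic IMPDH2, 2 to 5 lower (2 without KO + nuclear IMPDH2 replicate 3). Pathway genes higher than KO fell with library totals to 4 (guanosine), 3 (unlocalised) and 3 (cytosolic), with coding transcripts alone to 2 (guanosine) and 2 (cytosolic), and with the length offset to 3 (cytosolic). Pathway genes lower than KO were 4 with guanosine and with each of the unlocalised, nuclear and cytosolic forms under the offset. Between nuclear and cytosolic IMPDH2, 1 was higher and 0 lower under the offset, 0 were lower in the 6 libraries alone and 1 with coding transcripts alone. Against WT, 8 were higher with guanosine under library totals, and under the offset 1 with nuclear and 2 with cytosolic IMPDH2. Leaving out a library gave 4 to 7 pathway genes higher with guanosine than in KO and 0 to 3 lower with nuclear than with cytosolic IMPDH2.

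IMPDH2 with coding transcripts alone was -1.68 for guanosine against KO, -0.39 for nuclear against cytosolic, and 1.07, 0.21 and 0.59 for the unlocalised, nuclear and cytosolic forms against WT, none of them called. The nuclear form against WT was -0.02 with library totals, -0.08 without the filter, -0.05 with the offset, and -0.10 to -0.05 with a library left out. Directions turned for IFNAR1 (0.00 for KO against WT under library totals; 0.00, 0.57 and 0.18 for cytosolic against KO, nuclear against cytosolic and nuclear against WT with coding transcripts), PTPN2 (0.17, guanosine against KO, offset), LGALS3BP (-0.02) and ADAR (-0.03), both under library totals, OAS3 (0.00 and -0.49 for unlocalised and nuclear IMPDH2 against KO, coding transcripts), EIF2AK2 (0.04, unlocalised against WT, coding transcripts) and TYK2 (0.01, 0.09 and 0.07 for unlocalised, nuclear and cytosolic IMPDH2 against WT, coding transcripts). Under the offset IRF1 was 1.14 for cytosolic against KO, -1.13 for nuclear against cytosolic, 1.30 for guanosine against WT and 0.25 for cytosolic against WT, and IFITM3 was 0.25 for guanosine against WT. The causes were not tested. These directions were followed only for IMPDH2, the members under the naming rule and selected pathway genes, and a turn was listed only where a call was made.

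Replicate numbers did not pair the libraries: same-numbered deviations correlated at -0.162 to 0.23, and 1 of 18 libraries correlated best with its own number. With the number as a replicate block 28 members were higher and 4 lower with nuclear than with cytosolic IMPDH2. Of all genes 12.9% were then higher and 10.1% lower. Gene by gene, 450 log2 fold changes were followed, of the members under the naming rule above and of selected pathway genes. The block left 445 of them with the same call, the length offset 367 and protein-coding transcripts alone 375. Leaving out each library in turn kept 2548 of 2700. Over all alternatives 5867 of 6299 kept their call, and called changes among these also kept their direction. Uncalled changes whose direction turned were counted among these too. IFIT1, DDX60, ISG20 and the other members outside the rule were not followed in this way. RSAD2, EPSTI1, RTP4, MX2 and XAF1, near or under 1 CPM in the knockout groups, have few counts and wide errors. The average effective length varied more than 2-fold between libraries for 8 members: IRF1, CMPK2, RSAD2, EPSTI1, ISG20, XAF1, TRIM22 and IFITM1.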
